A study of Homo sapiens with 9 samples.

Results

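The NF-kB subunits and inhibitors described here were 10 genes, chosen by gene symbol: the subunits NFKB1, NFKB2, RELA, RELB and REL, the inhibitors NFKBIA, NFKBIB, NFKBIE and TNFAIP3, and NFKBIZ. NFKBIZ was grouped with the inhibitors as a member of the IkB family, but it acts as a cofactor at selected NF-kB targets. Every probe set that the platform table names with 1 of these symbols was taken, which gave 22 probe sets of the 54613 tested, for 10 of 19775 genes. Transcript levels had been measured in Jurkat cells (Clone E-6), a single established line of human leukaemic T lymphocytes, on 9 arrays with 1 total RNA sample each. The groups were 3 nsEP samples, given 100 pulses, each of 10 ns and at 150 kV/cm, 3 heat shock samples and 3 sham exposed samples. Nanosecond electrical pulses (nsEP) are very brief, very strong electric fields, and heat shock was the second stress. Cells of all groups were held in electroporation cuvettes, and RNA was taken 4 h after exposure. The samples are labelled biological replicates, and the labels do not say whether they came from separate cultures or days, so p-values measure the spread between these samples, which may be technical.

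NF-kB is a family of dimeric transcription factors. In resting cells the dimers are held in the cytoplasm by IkB proteins, and when the IkB kinase complex marks an IkB protein for destruction, the dimer moves to the nucleus and binds kB sites. Several of its targets encode its own inhibitors and subunits, which gives the pathway negative feedback, and in T lymphocytes it is switched on by the antigen receptor and by cytokines.

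Promoters of 8 members were in the RefSeq table (assembly GRCh38.p14), in 14 windows of 300 bases that ran 250 bases before to 50 after an annotated start. RELB and NFKBIE were not among them. The kB consensus, searched on both strands, was found in 9 of the 14 windows (64.3%), against 11.3% of all 35116 windows in the table. At the level of genes it was found for 7 of the 8 members (NFKB1, NFKB2, REL, NFKBIA, NFKBIB, NFKBIZ and TNFAIP3, but not RELA) and for 13.3% of 27305 genes. The core of a heat shock element (GAANNTTC, both strands) was in 0 of the 14 windows and in 6.77% of all windows. A loose AP-1 pattern (TGANTCA, with any base in the middle, both strands) was in 1 window, of NFKBIB, and in 7.71% of all windows. The NFKBIB match read TGAATCA, and shares with the middle base restricted were not counted. No match of 1 motif overlapped a match of another in the members, although matches of the kB consensus on opposite strands overlapped in NFKB2, REL and NFKBIB. The stretches below show the kB matches, in capitals, of the members that carry the calls (NFKBIZ, REL and, at 1 of its probe sets, NFKBIB) beside those of 3 members with no call, so that the likeness of the letters can be seen. Each is printed along the strand of its gene, and each lies upstream of the start. A further kB match of NFKBIB lay after the start and is not printed. The kB matches of NFKB2, which also had no call, are not printed either.
NFKBIZ, first start, chr3:101827747-101827796, plus strand, match 223 to 214 bases before the start: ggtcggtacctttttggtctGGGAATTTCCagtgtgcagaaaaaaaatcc
NFKBIZ, second start, chr3:101849264-101849304, plus strand, match 239 to 230 bases before the start: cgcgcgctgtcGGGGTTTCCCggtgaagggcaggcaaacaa
REL, chr2:60881507-60881557, plus strand, 2 overlapping matches 47 to 37 bases before the start: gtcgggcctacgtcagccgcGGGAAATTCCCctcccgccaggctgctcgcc
NFKBIB, chr19:38899921-38899968, plus strand, 2 overlapping matches 28 to 18 bases before the start: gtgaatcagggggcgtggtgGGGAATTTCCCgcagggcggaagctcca
NFKBIA, chr14:35404801-35404850, minus strand, match 81 to 72 bases before the start: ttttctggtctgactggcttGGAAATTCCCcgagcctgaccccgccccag
NFKB1, chr4:102501290-102501339, plus strand, match 49 to 40 bases before the start: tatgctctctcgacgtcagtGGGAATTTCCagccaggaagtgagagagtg
TNFAIP3, chr6:137867172-137867233, plus strand, matches 67 to 58 and 55 to 46 bases before the start: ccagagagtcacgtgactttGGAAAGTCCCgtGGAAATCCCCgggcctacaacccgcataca
Along the strand of the gene, the same letters of a match occurred in NFKBIZ at its first start, in NFKB1 and in NFKBIB. Read on the opposite strand, the match of NFKBIA and an overlapping match of REL had these letters too. A match is a description of these letters only, and no binding was measured.

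Levels are given as the log2 of the MAS5 signal, the summary of all probes of a probe set, and a difference between group means on that scale is called a log2 ratio. Probe sets have no common scale, so every log2 ratio compares groups within 1 probe set. Quartiles and the choice of a brightest probe set do rank probe sets by mean signal, and they show abundance only roughly. A probe set was called at a Benjamini-Hochberg adjusted p under 0.05 in a limma fit over all 54613 probe sets. Of the 22 member probe sets, 7 were in the brightest quartile of all probe sets (a mean of 8.65 or more), 4 were below the overall median of 6.33 and 1 (NFKB2, 211524_at) was in the dimmest quartile. The median SD within groups was 0.23 over the members' brightest probe sets, 0.24 over the brightest quartile of all probe sets and 1.09 over the dimmest.

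The exposures were checked by FOS, an immediate early gene, and HSPA6, a chaperone induced by heat. FOS had a log2 ratio of 7.27 in nsEP against sham and 9.20 in heat shock against sham (adjusted p = 3.25e-06 and 5.96e-08), and HSPA6 one of 1.39 and 8.77 (adjusted p = 0.208 and 1.01e-08). HPRT1, a housekeeping enzyme, had log2 ratios of 0.03 and 0.31 and was not called in either. All 12 T cell markers measured were in the brightest quartile, with a median level of 12.16 in nsEP, 11.80 in heat shock and 12.12 in sham samples, and 3 of them (CD2, CD28 and TRAT1) were called lower in heat shock against sham, with log2 ratios of -1.79, -1.01 and -2.16. For 9 myeloid markers the medians were 5.29, 6.24 and 5.09 and none was in the brightest quartile, but CD14 was called after heat shock, with a level of 2.62 in nsEP, 7.07 in heat shock and 2.29 in sham samples (log2 ratio 4.78 in heat shock against sham, adjusted p = 0.00193). For 7 B cell markers they were 7.25, 7.51 and 6.84 with 1 in that quartile, and the 1 erythroid marker measured, HBB, was not called. The array of nsEP replicate 3 stood apart, at -172.6 on the second principal component (14.2% of the variance), where the other 8 arrays lay between -30.6 and 62.6. The median log2 ratio of all probe sets in heat shock against sham was 0.18, and it was 0.45 over the dimmest quartile and -0.03 over the brightest. Ratios relative to that shift are given for the called members. The part of these marker and array differences in the results was not tested. In a bulk sample, fewer cells that express a gene and less RNA per cell cannot be told apart.

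nsEP against sham asked what the pulses changed, and 0 of the 22 member probe sets passed the test in limma, where 0.0586% of all probe sets were called (32 of 54613). The smallest adjusted p among the members was 0.423. At an unadjusted p under 0.05 there were 2 member probe sets, where 7.0% of all probe sets were past that value, and 0 passed the t-test of the study's methods, whether adjusted or at the study's own thresholds. The 3 nsEP arrays and the 3 sham arrays did not overlap at 3 member probe sets (13.6%), where 11.6% of all probe sets had groups apart. The members' median log2 ratio was 0.07 and that of all probe sets -0.01. These values do not show that the members were unaffected, and the 95% intervals give the changes that 3 arrays a group leave possible.

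**Figure D1:**
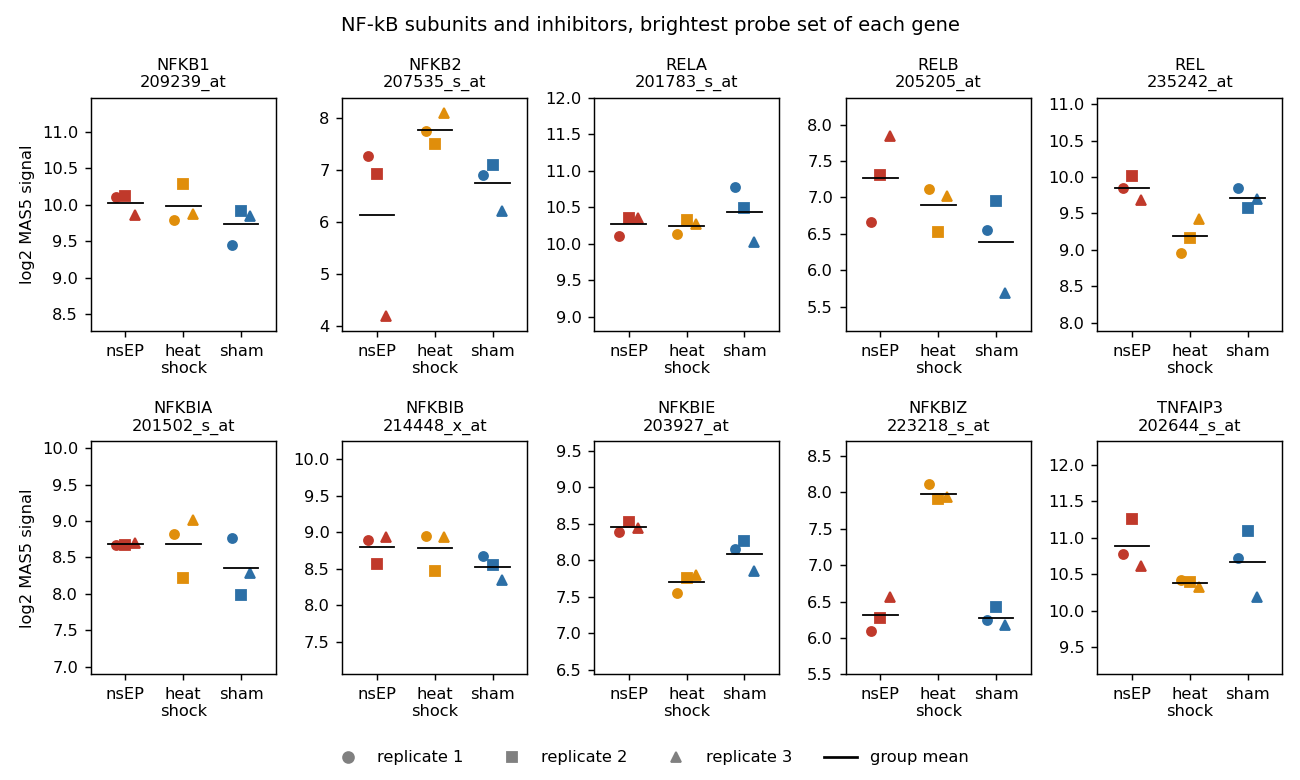
Log2 MAS5 signal (vertical axes, each gene on its own scale) of the brightest probe set of the 10 members on the 9 arrays, with nsEP, heat shock and sham from left to right, the replicates as different markers and the group mean as a line. The heat shock arrays of NFKBIZ lay between 7.90 and 8.11, above the other 6 arrays, and those of REL between 8.96 and 9.43, below the other 6 arrays.

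Among the subunits, NFKB1, which encodes a precursor that is cut to a DNA-binding subunit, had levels of 10.10, 10.12 and 9.86 in nsEP, 9.79, 10.28 and 9.87 in heat shock and 9.45, 9.91 and 9.84 in sham samples. RELA, the main activating subunit, had 10.10, 10.35 and 10.35 in nsEP, 10.14, 10.33 and 10.27 in heat shock and 10.78, 10.49 and 10.02 in sham samples. In both genes all groups overlapped. The log2 ratio of NFKB1 was 0.30 (95% interval -0.11 to 0.70) in nsEP against sham and 0.25 (-0.16 to 0.65) in heat shock against sham, and that of RELA was -0.17 (-0.58 to 0.24) and -0.18 (-0.59 to 0.23). For both genes, the upper and lower bounds of the 95% interval were below 1 in size in each of the 3 comparisons. The dimmer RELA probe set had ratios of -0.06 and -0.16 and was not called either.

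RELB, an activating subunit of the alternative pathway, had levels of 6.66, 7.31 and 7.84 in nsEP, 7.11, 6.53 and 7.02 in heat shock and 6.55, 6.95 and 5.69 in sham samples. Its log2 ratio in nsEP against sham was 0.88 (SE 0.41, 95% interval -0.02 to 1.77, adjusted p = 0.725), the largest in size among the 10 brightest member probe sets in that comparison, and the groups overlapped. After heat shock its ratio to sham was 0.49 (adjusted p = 0.575).

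NFKB2, the other precursor subunit and the partner of RELB, was measured by 3 probe sets that disagreed. Its brightest, 207535_s_at, had levels of 7.26, 6.92 and 4.19 in nsEP, 7.74, 7.49 and 8.09 in heat shock and 6.91, 7.10 and 6.20 in sham samples. The nsEP value of 4.19 was that of replicate 3, the array that stood apart. The log2 ratio in nsEP against sham was -0.61 (adjusted p = 0.922), and without nsEP replicate 3 it was 0.36 (adjusted p = 0.837). After heat shock it was 1.04 (SE 0.64, adjusted p = 0.43), and the 3 heat shock arrays all lay above the 3 sham arrays. The second probe set, 209636_at, had 6.10, 5.94 and 6.49 in nsEP and 5.61, 3.14 and 3.42 in sham samples, a ratio of 2.12 with a 95% interval of 0.32 to 3.92 (adjusted p = 0.627). It was below the median of all probe sets, and the spread of its sham arrays was wide (SD 1.35). The dimmest, 211524_at, had a ratio of -0.04.

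REL, which encodes c-Rel, the subunit most restricted to lymphocytes and other blood cells, had 5 probe sets, and none was called in nsEP against sham. Their log2 ratios in that comparison lay between -0.17 and 0.40. The probe set 228812_at had levels of 10.10, 10.44 and 9.52 in nsEP, 8.43, 8.78 and 8.93 in heat shock and 9.91, 10.03 and 9.87 in sham samples. All 3 heat shock arrays were below the other 6.

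Among the inhibitors, NFKBIA, the main IkB protein and a direct NF-kB target, had levels of 8.67, 8.67 and 8.70 in nsEP, 8.82, 8.22 and 9.01 in heat shock and 8.76, 7.98 and 8.29 in sham samples. The nsEP arrays of NFKBIA were close together (SD 0.02) and inside the range of the sham arrays. Its log2 ratio was 0.34 (95% interval -0.21 to 0.88) in nsEP against sham and 0.34 (-0.21 to 0.89) in heat shock against sham, and it was not called in either. The other NFKBIA probe set, 231699_at, was dimmer, with a ratio of -0.04 in nsEP against sham and 1.11 in heat shock against sham (adjusted p = 0.394), where the arrays of the groups did not overlap.

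TNFAIP3, a ubiquitin-editing enzyme that shuts the pathway off and is itself an NF-kB target, had levels of 10.77, 11.26 and 10.61 in nsEP, 10.42, 10.39 and 10.33 in heat shock and 10.72, 11.09 and 10.19 in sham samples. The log2 ratio was 0.21 (95% interval -0.28 to 0.70) in nsEP against sham and -0.29 (-0.78 to 0.20) in heat shock against sham. The other TNFAIP3 probe set, 202643_s_at, had ratios of 0.55 (adjusted p = 0.834) and 0.07 (adjusted p = 0.948). Neither was called.

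NFKBIE, an IkB protein that is also an NF-kB target, had levels of 8.39, 8.52 and 8.45 in nsEP, 7.55, 7.76 and 7.80 in heat shock and 8.15, 8.27 and 7.86 in sham samples. The 3 groups did not overlap: all nsEP arrays were above all sham arrays, which were above all heat shock arrays. The log2 ratio was 0.36 (SE 0.21, adjusted p = 0.8) in nsEP against sham and -0.39 (SE 0.21, adjusted p = 0.355) in heat shock against sham, and neither passed the test.

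NFKBIB, another IkB protein, had 3 probe sets. Its brightest, 214448_x_at, had levels of 8.89, 8.57 and 8.93 in nsEP, 8.95, 8.47 and 8.94 in heat shock and 8.67, 8.55 and 8.35 in sham samples, with a ratio of 0.27 in nsEP against sham and 0.26 in heat shock against sham. The probe set 214062_x_at had 6.16, 6.85 and 5.73 in nsEP, 8.02, 7.50 and 7.50 in heat shock and 7.69, 7.29 and 7.28 in sham samples. Here all nsEP arrays were below the other 6. The ratio in nsEP against sham was -1.17 (SE 0.34, 95% interval -1.91 to -0.43, adjusted p = 0.423), which was the smallest adjusted p of any member in that comparison. The third probe set, 228388_at, had a ratio of 0.05, so the 3 probe sets of NFKBIB did not give 1 answer. In Affymetrix names, x_at marks a probe set with probes that may also match other transcripts.

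Heat shock against sham asked what the second stress changed, against the same 3 sham arrays. There 2 of 22 member probe sets passed the test (9.09%), where 4.17% of all probe sets were called, or 7.04% of those at or above the overall median. NFKBIZ was 1 of 22 called higher (1.81% of all probe sets) and REL 1 of 22 called lower (2.36%). Groups did not overlap at 8 of the 22 (36.4%), against 26.5% of all probe sets. The members' median log2 ratio was 0.16 and that of all probe sets 0.18.

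NFKBIZ, a nuclear member of the IkB family that acts as a cofactor at selected NF-kB targets, rose after heat shock. At 223218_s_at its levels were 6.09, 6.27 and 6.56 in nsEP, 8.11, 7.90 and 7.94 in heat shock and 6.24, 6.42 and 6.18 in sham samples. The heat shock arrays were above the other 6, and the nsEP and sham arrays overlapped. The log2 ratio in heat shock against sham was 1.70 (SE 0.30, 95% interval 1.06 to 2.35, 3.25-fold higher, adjusted p = 0.00627), or 1.52 relative to the median of all probe sets. In nsEP against sham it was 0.03 (95% interval -0.62 to 0.67, adjusted p = 0.996), so that a rise of the size seen after heat shock was outside the interval. The call held in each of the 6 fits that left out 1 array (adjusted p 0.0216 to 0.0423), and it ended when arrays were scaled to the poly-A spike-ins (log2 ratio 0.67, adjusted p = 0.475), which also moved the median of all probe sets to -0.85.

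The second NFKBIZ probe set, 223217_s_at, was dimmer, with 5.62, 5.57 and 3.45 in nsEP, 6.23, 6.88 and 6.79 in heat shock and 5.34, 4.84 and 5.79 in sham samples. Its ratio in heat shock against sham was 1.31 (SE 0.62, 95% interval -0.03 to 2.66, adjusted p = 0.291). The sign was that of the first probe set and the groups were apart, but it did not pass the test.

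REL fell after heat shock at 1 of its 5 probe sets. At 228812_at, with the array values given above, the log2 ratio was -1.22 (SE 0.23, 95% interval -1.72 to -0.73, 2.34-fold lower, adjusted p = 0.00888), or -1.40 relative to the median of all probe sets. That median was 0.18, but it was -0.03 over the brightest quartile, which held this probe set. The brightest REL probe set, 235242_at, had levels of 9.85, 10.01 and 9.69 in nsEP, 8.96, 9.17 and 9.43 in heat shock and 9.85, 9.57 and 9.70 in sham samples, with a ratio of -0.52 (SE 0.18, adjusted p = 0.132). Its heat shock arrays were also below the other 6. The remaining REL probe sets had ratios of -0.44 (206036_s_at), -0.23 (239486_at) and 0.01 (206035_at), and none was called. For 228812_at the call held in each of the 6 fits that left out 1 array (adjusted p 0.0208 to 0.0497) and under every scaling, and it ended without the variance trend (adjusted p = 0.0884) and in the methods' t-test after adjustment (0.0777).

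**Figure D2:**
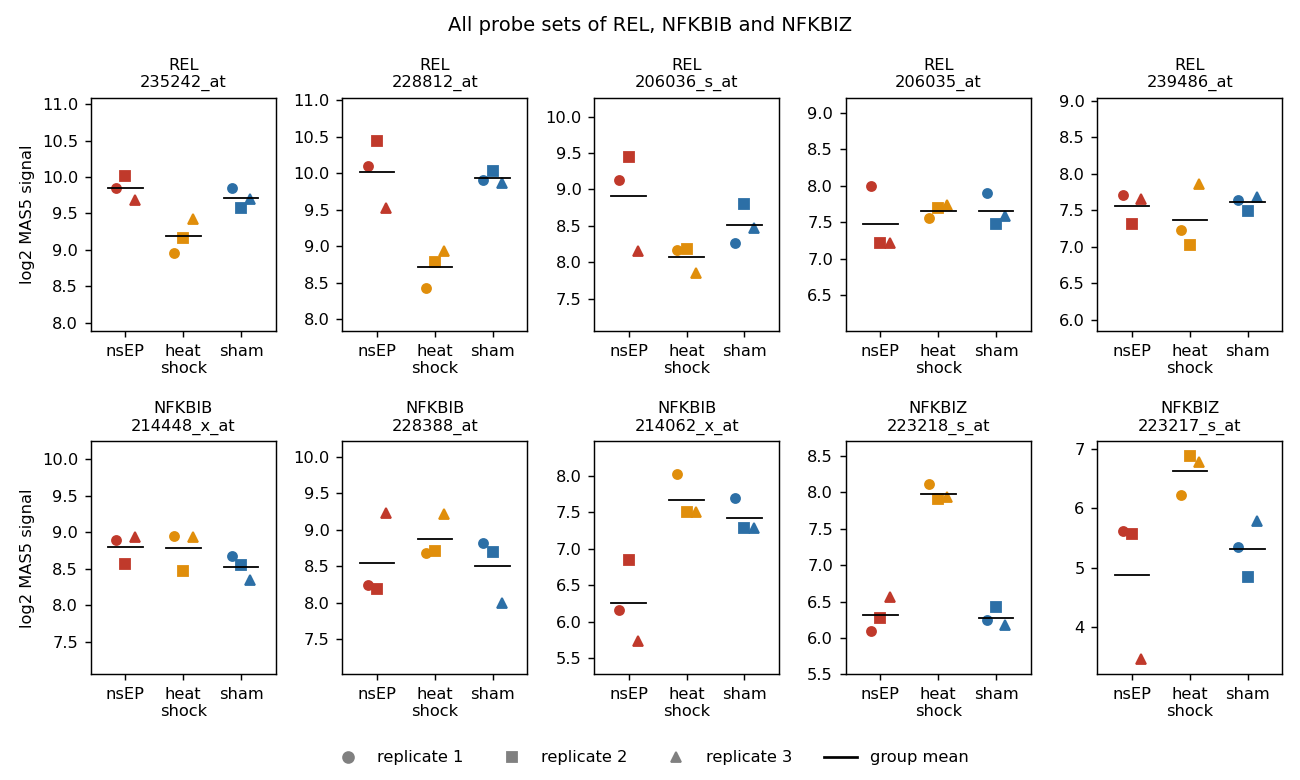
Log2 MAS5 signal (vertical axes, each probe set on its own scale) of all probe sets of REL, NFKBIB and NFKBIZ on the 9 arrays, with nsEP, heat shock and sham from left to right and the group mean as a line. The heat shock arrays were below the other 6 at 235242_at and 228812_at of REL but not at its 206035_at or 239486_at, and the low nsEP arrays of NFKBIB stood only at 214062_x_at among its 3 probe sets.

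nsEP against heat shock set the stresses against each other, as the test of the difference between their effects on each probe set. It shares its arrays with the comparisons above. There 4 of 22 member probe sets passed the test (18.2%), where 4.96% of all probe sets were called, or 8.29% of those at or above the overall median. Of these, 2 were called higher in nsEP (2.31% of all probe sets) and 2 lower (2.65%). Groups were apart at 9 of the 22 (40.9%), against 23.1% of all probe sets. The members' median log2 ratio was 0.07, and that of all probe sets was -0.18.

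NFKBIZ was lower in nsEP than in heat shock samples, with a log2 ratio of -1.67 at 223218_s_at (SE 0.30, 95% interval -2.32 to -1.03, adjusted p = 0.00619). This call, too, held without any 1 array (adjusted p 0.00657 to 0.0402), and it ended under poly-A spike-in scaling (-0.72, adjusted p = 0.47) and in the methods' t-test after adjustment (0.071). The dimmer NFKBIZ probe set had a ratio of -1.75 (adjusted p = 0.14).

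REL was higher in nsEP than in heat shock samples at both of its brightest probe sets. At 228812_at the log2 ratio was 1.31 (SE 0.23, 95% interval 0.82 to 1.80, adjusted p = 0.00535), and it held without any 1 array (0.00102 to 0.0311), but ended without the variance trend (0.0622) and in the methods' t-test after adjustment (0.208). The call at 235242_at was close to the threshold, with a ratio of 0.66 (SE 0.18, 95% interval 0.28 to 1.04, adjusted p = 0.0498). It was kept in 1 of 6 fits that left out an array, that without nsEP replicate 3 (0.0334), and ended without nsEP replicate 1 or 2 or any of the 3 heat shock replicates (0.0568 to 0.181). Of 10 other alternatives, 5 kept the call at 235242_at. Among those that ended it were quantile normalization (adjusted p = 0.0847) and only the 6 arrays (0.0982). The call also ended without the variance trend (0.17) and in the methods' t-test after adjustment (0.222). The other 3 REL probe sets had ratios of 0.84, 0.19 and -0.18 and were not called.

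NFKBIB was lower in nsEP than in heat shock samples at 214062_x_at, with a log2 ratio of -1.42 (SE 0.34, 95% interval -2.16 to -0.68, adjusted p = 0.0322). Its other probe sets had ratios of 0.01 (214448_x_at, 95% interval -0.43 to 0.45) and -0.32 (228388_at, -0.99 to 0.35). The call was kept in 1 of 6 fits, that without nsEP replicate 2 (0.0224), and ended without nsEP replicate 1 or 3 or any of the 3 heat shock replicates (0.0571 to 0.135). Of 10 other alternatives, 4 kept it. It ended under quantile normalization (-1.21, adjusted p = 0.0889), with arrays centred on medians (-1.10, 0.086) and under poly-A spike-in scaling (-0.47, 0.648). With only the 6 arrays, without the variance trend and in the methods' t-test the adjusted p was 0.0771, 0.0763 and 0.231.

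NFKBIE did not pass the test in nsEP against heat shock, with a log2 ratio of 0.75 (SE 0.21, 95% interval 0.30 to 1.20, adjusted p = 0.0604), although its groups were apart. It passed under quantile normalization (0.88, adjusted p = 0.0345), with arrays centred on their medians (1.07, 0.0083), with array weights (0.0495) and after removal of dim probe sets (0.035). TNFAIP3 had a ratio of 0.50 (adjusted p = 0.253), with groups apart, and the brightest NFKB2 probe set one of -1.65 (SE 0.64, adjusted p = 0.181), which was -0.68 without nsEP replicate 3. For RELB, NFKB1, RELA and NFKBIA, the ratios at the brightest probe sets were 0.38, 0.05, 0.02 and -0.00, and the adjusted p-values lay between 0.669 and 0.996.

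**Figure D3:**
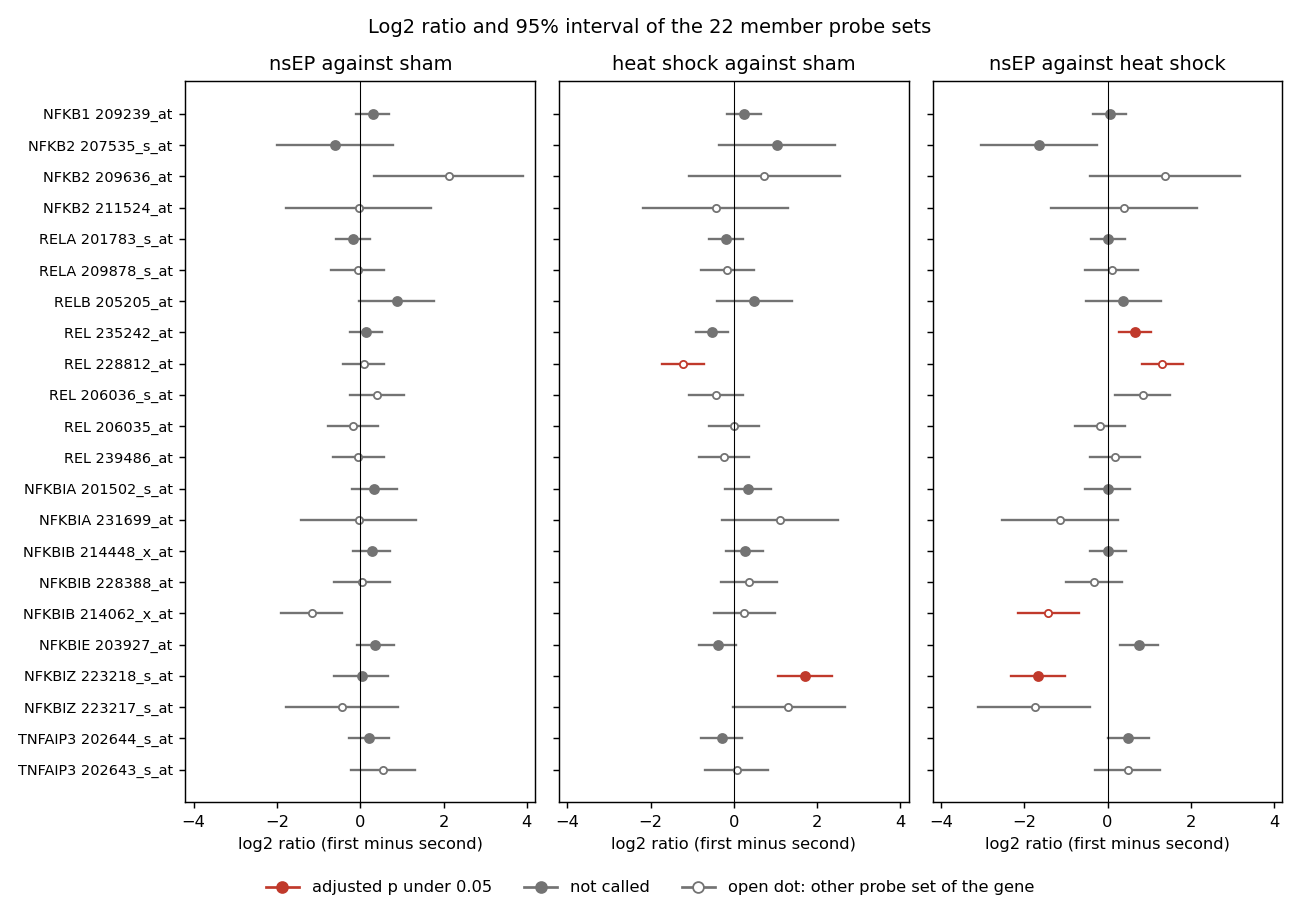
Log2 ratio (horizontal axes, first group minus second) of the 22 member probe sets in the 3 comparisons, named above each panel, as a dot with its 95% interval from the limma fit over 9 arrays. Red marks an adjusted p under 0.05, which 0, 2 and 4 probe sets had, and open dots are the further probe sets of a gene.

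Around the members, the lists held 29 measured upstream genes (of 32 listed), 2 further IkB-like proteins (of 3) and 36 target genes (of 39), each taken at its brightest probe set. In nsEP against sham 0 of 29, 0 of 2 and 0 of 36 were called, where 0.0607% of all genes were, and 2, 0 and 4 had an unadjusted p under 0.05, as did 5.4% of all genes. The methods' t-test called 0 after adjustment and 1, CD69, at the study's own thresholds. The lists' median log2 ratios were -0.11, -0.29 and 0.03, and that of all genes was -0.02. The smallest p among the upstream genes was that of RNF31, a subunit of the ubiquitin ligase that builds linear chains (log2 ratio 1.54, SE 0.46, adjusted p = 0.44, against a ratio of -0.21 at its other probe set), followed by TRADD, an adaptor of the TNF receptor (-0.63, adjusted p = 0.562). NFKBIL1 and NFKBID had ratios of -0.50 and -0.09.

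The target nearest to the threshold was CD69, a surface protein that appears early on activated T lymphocytes. Its levels were 11.21, 11.71 and 11.00 in nsEP, 8.29, 9.60 and 8.75 in heat shock and 8.65, 9.86 and 9.01 in sham samples. All nsEP arrays were above all others, and the log2 ratio in nsEP against sham was 2.13 (SE 0.35, 95% interval 1.37 to 2.89, adjusted p = 0.0654). It passed without sham replicate 2 (2.48, adjusted p = 0.0322) and with dim probe sets left out (0.0256). Heat shocked samples had a CD69 ratio of -0.30 to sham, and in nsEP against heat shock it was called, at 2.43 (adjusted p = 0.0017). PSMB9, a subunit of the immunoproteasome, had the next smallest p in nsEP against sham (0.33, adjusted p = 0.657).

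In heat shock against sham 4 of the 36 targets were called (11.1%), where 5.71% of all genes were, 2 of them higher (1.72% of all genes) and 2 lower (3.99%). GADD45B, a stress-induced regulator of MAP kinase signalling, had levels of 8.04, 8.57 and 8.97 in nsEP, 13.46, 13.54 and 13.50 in heat shock and 7.87, 8.28 and 7.98 in sham samples. Its log2 ratio in heat shock against sham was 5.46 (SE 0.21, 44.0-fold higher, adjusted p = 2.58e-08), and all of its probe sets were called higher. IER3, an early response gene that acts on cell survival, was 2.48 higher (5.59-fold, adjusted p = 0.000188), and its call ended under poly-A spike-in scaling (1.45, adjusted p = 0.0533) and in the methods' t-test after adjustment (0.0595). XIAP, an inhibitor of caspases, had a ratio of -1.04 (adjusted p = 0.00422) at its brightest probe set and -0.75 to 0.50 at its others, none of which was called. IRF1, a transcription factor of the interferon response, had a ratio of -0.97 (adjusted p = 0.00478), and -0.84 (adjusted p = 0.146) at its other probe set. Both calls ended without the variance trend (adjusted p = 0.0765 for XIAP and 0.0727 for IRF1) and in the adjusted t-test of the methods (0.104 and 0.0986). The median over the 36 targets was 0.04, against 0.14 over all genes.

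Of the 29 upstream genes 0 were called higher and 2 lower in heat shock against sham (6.90% in all). TRAF3, an adaptor that restrains the alternative pathway, had a log2 ratio of -1.07 (adjusted p = 0.0445), and TBK1, a kinase related to the IkB kinases, one of -0.75 (adjusted p = 0.0446). Both were close to the threshold: TRAF3 was kept in 1 of 6 fits that left out an array, that without heat shock replicate 2 (0.027 to 0.165 over the 6), and TBK1 in 0 of 6 (0.0654 to 0.166). The other TRAF3 probe set had a ratio of 0.10. NFKBID, a further nuclear IkB-like protein, had a ratio of -0.68 (adjusted p = 0.124), and NFKBIL1 one of 0.30. The median ratio was -0.17 over the upstream genes and -0.19 over these 2 IkB-like genes, against 0.14 over all genes. Most upstream genes were in the brightest quartile of all probe sets, where the median ratio was -0.03.

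In nsEP against heat shock, where 5.99% of all genes were called, 1 upstream gene and 5 targets were (3.45% and 13.9%). TRAF6, a ubiquitin ligase on the way from receptors to the IkB kinases, was higher in nsEP (log2 ratio 1.34, SE 0.26, adjusted p = 0.0104), but its call ended without nsEP replicate 2 (0.0563) or heat shock replicate 3 (0.055), and its other probe set had a ratio of 0.25. The TRAF6 call also ended without the variance trend (0.0762) and in the methods' t-test after adjustment (0.179). Of the targets, 3 were higher in nsEP (3.83% of all genes were), which were CD69, IRF1 (0.97, adjusted p = 0.00421) and XIAP (0.89, adjusted p = 0.00965). At the other IRF1 probe set the ratio was 0.34 (adjusted p = 0.584). The further XIAP probe sets had ratios of -0.01 to 0.52, and none of them was called. The other 2, GADD45B (-4.98, adjusted p = 1.28e-07) and IER3 (-1.88, adjusted p = 0.0012), were lower (2.16% of all genes). Under poly-A spike-in scaling IER3 was not called (-0.93, adjusted p = 0.227), and XIAP was not called without nsEP replicate 2 (0.79, adjusted p = 0.0504) or heat shock replicate 1 (0.79, 0.0556). Of these 5 targets only GADD45B kept its call in the methods' t-test after adjustment, and without the variance trend IRF1 (0.0605) and XIAP (0.0974) lost theirs. The median ratios were 0.12 for upstream genes and 0.02 for targets, against -0.14 for all genes, and neither IkB-like gene was called (median -0.10). Over the brightest quartile of all probe sets, which held most upstream genes, the median ratio was 0.03.

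**Figure D4:**
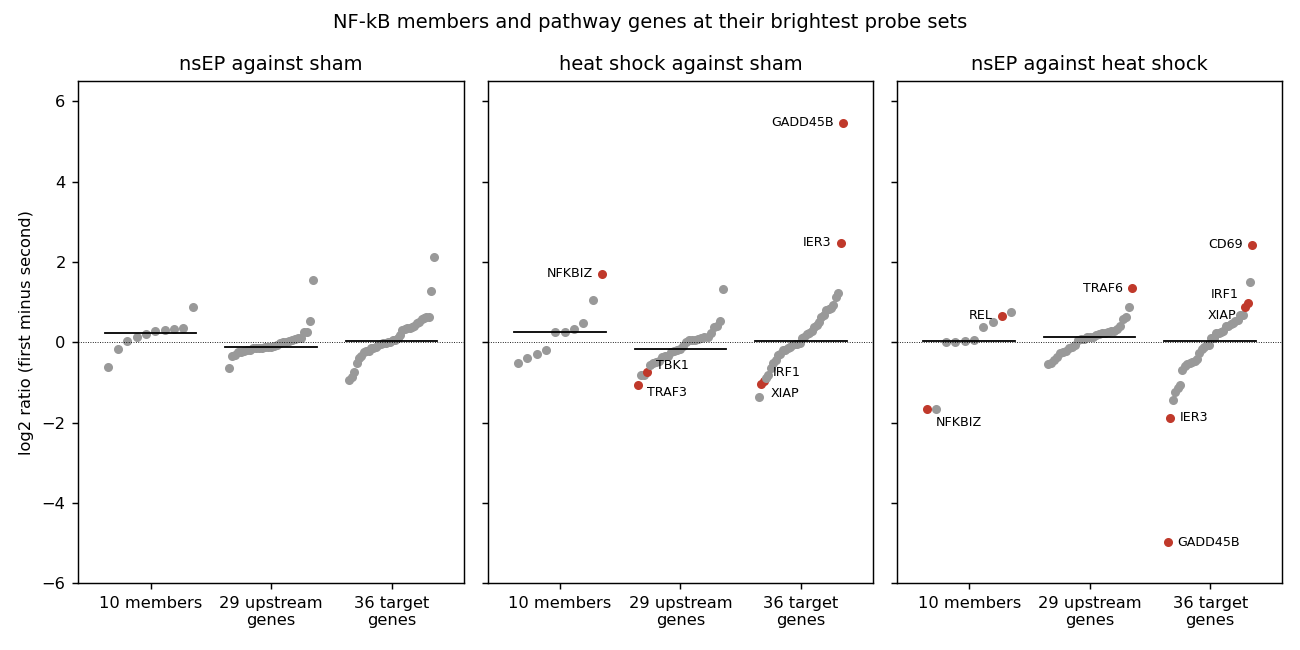
Log2 ratio (vertical axis, first group minus second) of the 10 members, 29 upstream genes and 36 target genes at their brightest probe sets in the 3 comparisons, with genes sorted by ratio within a list and the list median as a line. Red, named dots had an adjusted p under 0.05, of which there were none in nsEP against sham, and GADD45B was farthest from 0, at 5.46 in heat shock against sham.

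The member with the largest log2 ratio in heat shock against sham at its brightest probe set was NFKBIZ, and the genes whose levels were most like its own over the 9 arrays were GADD45B (Pearson r 0.993), MSX1 (0.991), IER5 (0.987), DNAJB1 (0.985) and HSPA2 (0.983), among 12229 genes with a mean at or above the overall median. These coefficients describe 9 arrays that share 3 conditions, and all 5 genes had higher means in heat shock than in sham samples, by log2 ratios of 2.05 to 5.46. DNAJB1 and HSPA2 encode chaperones.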

How the data were processed

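Total RNA of 9 samples was hybridised to Affymetrix HG-U133 Plus 2.0 arrays. The authors deposited log2 values of MAS5 signals, per the labels and methods, and the trimmed mean signal was 500.1 on all 9 arrays. MAS5 has no common noise floor, so dim probe sets scatter widely, and detection calls were not used here. The number of arrays limits the precision.

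Groups came from the sample titles. Probe sets were named through the platform table: of 54675, 62 controls were left out, and 41091 had 1 symbol, 1801 several and 11721 none. All 9 arrays entered 1 limma 3.58.1 fit (R 4.3.3) with a mean per group, a prior variance trended on the signal and two-sided tests, with Benjamini-Hochberg adjustment over 54613 probe sets. With 3 arrays against 3 an exact permutation test cannot go below p = 0.1, so none was used for single genes. The fit was also run on simulated arrays with independent noise and known changes in nsEP at bright probe sets. These arrays held no outlying array and no shift that depends on brightness, so they cannot show how the fit handles those. The methods' t-test was also run, counted at a p of up to 0.05 and a log2 ratio of at least 2 in either direction, and after adjustment.

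Every member was named at its brightest probe set (highest mean over 9 arrays), with further probe sets past the threshold. From each pathway list up to 4 called genes with the largest ratio were named, or up to 2 with the smallest p; XIAP in nsEP against heat shock and the remaining probe sets were given after their values were seen. The members and lists were chosen with earlier results of these data known. Listed genes and markers with no probe set under 1 symbol were not analysed here. Promoter windows were taken from RefSeq (GRCh38.p14). Alternatives were a replicate block, quantile normalization, median centring, scaling to 24 poly-A spike-in probe sets, 32 signal units added, dim probe sets left out, only the 6 arrays compared, no variance trend, array weights and each array left out.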

Additional observations from a re-analysis of the deposited data

How the results depend on the processing

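The next counts cover only the members' brightest or called probe sets and the pathway genes named above, in the comparisons where they were named. Among these, over all alternatives, results called in the main analysis kept their call in 224 instances and lost it in 64, and 0 changed sign. Those not called changed sign in 38 instances and passed the threshold in 12. Pathway genes that were not named are outside these counts, and the paragraph below shows that more of them passed under some alternatives. Scaling mattered most for heat shock: the median of all probe sets in heat shock against sham was 0.18 as deposited, -0.01 after quantile normalization, -0.13 with arrays centred on medians, -0.85 with poly-A spike-in scaling and 0.11 with 32 signal units added, and the share of calls that were higher was 43.4, 40.5, 15.6, 4.17 and 47.3%. In nsEP against heat shock those medians were -0.18, 0.02, 0.15, 0.77 and -0.10, and the shares 46.6, 52.5, 79.7, 92.8 and 44.1%; in nsEP against sham the shares were 87.5, 86.1, 85.7, 100.0 and 87.1%. The cause of these changes was not tested.

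Of 22 member probe sets, 0 were called in nsEP against sham under every alternative. In heat shock against sham, where 2 were called, 3 were after centring, 1 was without the variance trend, 0 at the study's thresholds of the methods' t-test and 1 in that t-test after adjustment; 2 were called in each leave-one-out fit. In nsEP against heat shock, where 4 were called, 2 were under poly-A spike-in scaling, 2 with only the 6 arrays, 1 without the variance trend and 0 in the methods' t-test in either form, while 6 were with array weights, 5 after centring and 5 after removal of dim probe sets, and leaving out 1 array gave 2 to 4. Of the pathway genes, 0 were called in nsEP against sham, with 1 (CD69) under the replicate block, with dim probe sets left out and at the study's thresholds, and 0 to 1 without 1 array. In heat shock against sham 6 were called, with 17 after centring, 11 under spike-in scaling, 2 without the variance trend, 2 at the study's thresholds, 1 in the adjusted t-test and 4 to 5 without 1 array. In nsEP against heat shock 6 were called, with 14 after centring, 10 with array weights, 3 without the variance trend, 2 at the study's thresholds, 1 in the adjusted t-test and 4 to 11 without 1 array, the 11 without nsEP replicate 3.

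Replicate numbers did not pair the arrays: the deviations of same-numbered arrays correlated at -0.16 to 0.215. With the number as a replicate block the member counts were 0 in nsEP against sham, 2 after heat shock and 3 in nsEP against heat shock, where REL 235242_at lost its call (adjusted p = 0.0731), and CD69 passed in nsEP against sham (0.00165).

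The changes of sign were all in results not called. In heat shock against sham, centring gave -0.06 for NFKB1, -0.04 for NFKBIB 214448_x_at, -0.06 for NFKBIB 214062_x_at and -0.01 for NFKBIL1, and spike-in scaling gave -0.78 for NFKB1, -0.54 for RELB, -0.69 for NFKBIA, -0.77 and -0.78 for those NFKBIB probe sets and -0.73 for NFKBIL1. In nsEP against heat shock, quantile normalization gave -0.04 for NFKB1, -0.08 for RELA, 0.00 for NFKBIA and -0.00 for NFKBIB 214448_x_at, centring gave 0.32 for NFKBIA, spike-in scaling gave 0.95 for NFKBIA and 0.15 for NFKBIL1, and array weights gave -0.04 for NFKBIB 214448_x_at. In nsEP against sham, NFKBIZ 223218_s_at was at -0.05 under spike-in scaling and -0.03 with array weights. Without 1 array, the log2 ratio in nsEP against heat shock ranged from -0.04 to 0.20 for NFKB1, -0.04 to 0.10 for RELA, -0.23 to 0.16 for NFKBIA and -0.15 to 0.12 for NFKBIB 214448_x_at, and in nsEP against sham from -0.37 to 0.01 for RELA, -0.13 to 0.33 for REL 228812_at, -0.03 to 0.42 for TNFAIP3, -1.18 to 0.36 for NFKB2 207535_s_at and -0.10 to 0.14 for NFKBIZ 223218_s_at.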
